A study of Mus musculus with 2 samples.

Results

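The genes of the collagen chains were taken as every gene whose symbol has the form Col, a type number, the letter a and a chain number, which gave 44 of the 31053 genes measured. All 44 had at least 1 unique molecular identifier (UMI, a tag that marks each captured RNA molecule) in each of the 2 single-cell RNA sequencing libraries, which were made from e15.5 mouse eye cups with a chemistry that reads the 3′ end of each transcript. The control library held cells of 3 pooled Myrf fl/fl eye cups, in which the Myrf alleles are floxed and no Cre is present. The mutant library held cells of 3 pooled Rx>cre Myrf fl/fl eye cups, which carry the same floxed alleles and a Cre under the control of Rx, an eye field gene active in the optic vesicle that forms the neural retina and the retinal pigment epithelium (RPE). Mesenchyme, vessels and surface epithelium do not arise from the optic vesicle and come into these libraries as neighbors of the targeted tissue. The cornea, the lens and the optic nerve had been removed before dissociation. Each genotype was sequenced as 1 library, so no comparison between them has a replicate check and no p-value is given. The 95% intervals below cover counting error only.

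Myrf, the targeted gene, had 293 UMIs in control and 58 UMIs in mutant RPE-like cells, or 76.9 and 30.4 counts scaled to 1000000 UMIs of the class (CPM), a ratio of 0.394 with a counting interval of 0.292 to 0.524. These reads lie at the end of the transcript, so they measure its level and not the deletion. After filtering, 11544 control and 12668 mutant cells remained, with median depths of 9339 and 8702 UMIs per barcode before filtering. The libraries shared 69 barcodes, and they differed in the sex of the pooled embryos, since 0.0260% of control and 41.8% of mutant cells had a Y-linked UMI. Cells were grouped into 15 classes by markers, each called by its name and the ending -like, and the mesenchyme was divided further into tendon-like, Osr2/Foxl2-like, keratocyte-like and other cells. The RPE-like class held 367 control and 198 mutant cells. Its 12 markers summed to 14900 and 14240 CPM, but the visual cycle gene Rpe65 was at 0 in both libraries and Rgr was at 0 in the mutant library.

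Collagens are built from 3 polypeptide chains wound into a triple helix, and each chain has its own gene. Fibrillar collagens such as types I, II, III, V and XI form the cables of sclera, cornea, tendon and vitreous. Type IV collagens form the sheet of basement membranes, type VIII forms hexagonal lattices, the fibril-associated collagens such as types IX, XII and XIV coat fibrils, and types XV and XVIII carry a protein core with sugar chains in basement membranes. In the eye the RPE rests on Bruch's membrane, a layered matrix against the choroidal vessels that holds collagens from both sides.

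Col8a1, Col4a3 and Col4a4 had their highest level in RPE-like cells in both libraries, and the sequences before their starts are shown for that reason. Col9a3, the fourth such gene, had no window in the promoter table used. Col4a3 had none either, and the bases before its start were taken from the window of Col4a4. Col8a1, a chain of the hexagonal lattice collagen, stands alone on chromosome 16. Col4a3 and Col4a4, the genes of a specialized basement membrane network, lie head to head on chromosome 1 with starts 72 bases apart, so that a stretch of 71 bases separates them. Col4a1 and Col4a2, the genes of the general basement membrane network and low in RPE-like cells, are shown for comparison, since they also lie head to head, with starts 21 bases apart and gene models that overlap by 22 bases, and these 22 bases lie inside both genes. The third type IV pair, Col4a5 and Col4a6 on the X chromosome, has starts 1309 bases apart. The sequences are from RefSeq (GRCm38.p6), 5′ to 3′, with gene starts from the GENCODE annotation. Capitals mark the GC box GGGCGG, or CCGCCC where it is read on the other strand.
Col8a1, chr16:57754738-57754987, minus strand: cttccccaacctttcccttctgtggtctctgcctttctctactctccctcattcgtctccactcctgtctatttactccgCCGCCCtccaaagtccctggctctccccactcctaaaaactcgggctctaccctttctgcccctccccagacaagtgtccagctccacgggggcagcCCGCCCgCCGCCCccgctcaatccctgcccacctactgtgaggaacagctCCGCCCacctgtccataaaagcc
Col4a4 and Col4a3, chr1:82586850-82586920, minus strand: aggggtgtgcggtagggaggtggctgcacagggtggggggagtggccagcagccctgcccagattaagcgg
Col4a1 and Col4a2, chr8:11312805-11312826, plus strand: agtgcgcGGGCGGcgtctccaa
The Col8a1 sequence held 4 GC boxes in 250 bases, the stretch between Col4a4 and Col4a3 held 0 in 71 bases and that of Col4a1 and Col4a2 held 1 in 22 bases. Of the 44 genes, 35 had a window in the RefSeq promoter table, from 250 bases before to 50 bases after the start. They had 38 windows, and a gene was counted if any of its windows held the letters. The shares of all windows count each window by itself, so the units differ. A GC box on either strand was found in 22 of these 35 genes (62.9%) and in 35.7% of all windows. The CCAAT box was found in 13 of the 35 genes against 37.4% of all windows, and TATAAA in 5 against 13.6%. The letters CTGGCAC, a form of the site bound by MYRF, were found in Col6a4 and Col6a6 and in 5.01% of all windows, and CTGGTAC was found in Col24a1 and in 2.24%. TCATGTG, bound by the pigment cell factor MITF, was found in Col24a1 and in 3.77% of windows, and GGATTA, bound by OTX factors, was in 0 of the 35 against 7.06%. A match is a run of letters and not a bound site.

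Collagen chains made up 0.622% of the UMIs of control cells and 0.625% of those of mutant cells. Col1a1, Col1a2 and Col3a1, which form the fibrils of types I and III, held 67.2% and 67.9% of the collagen UMIs. The mesenchyme-like cells held 88.6% of the collagen UMIs of the control library and 86.7% of those of the mutant library. A control mesenchyme-like cell carried on average 250 collagen UMIs and a keratocyte-like cell 420, while an endothelial-like cell carried 40.0, an RPE-like cell 21.4, a retinal progenitor-like cell 5.28 and an erythroid-like cell 1.13. Red cells do not make collagen, so the erythroid value gives the order of the background from free RNA in the droplets.

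**Figure D1:**
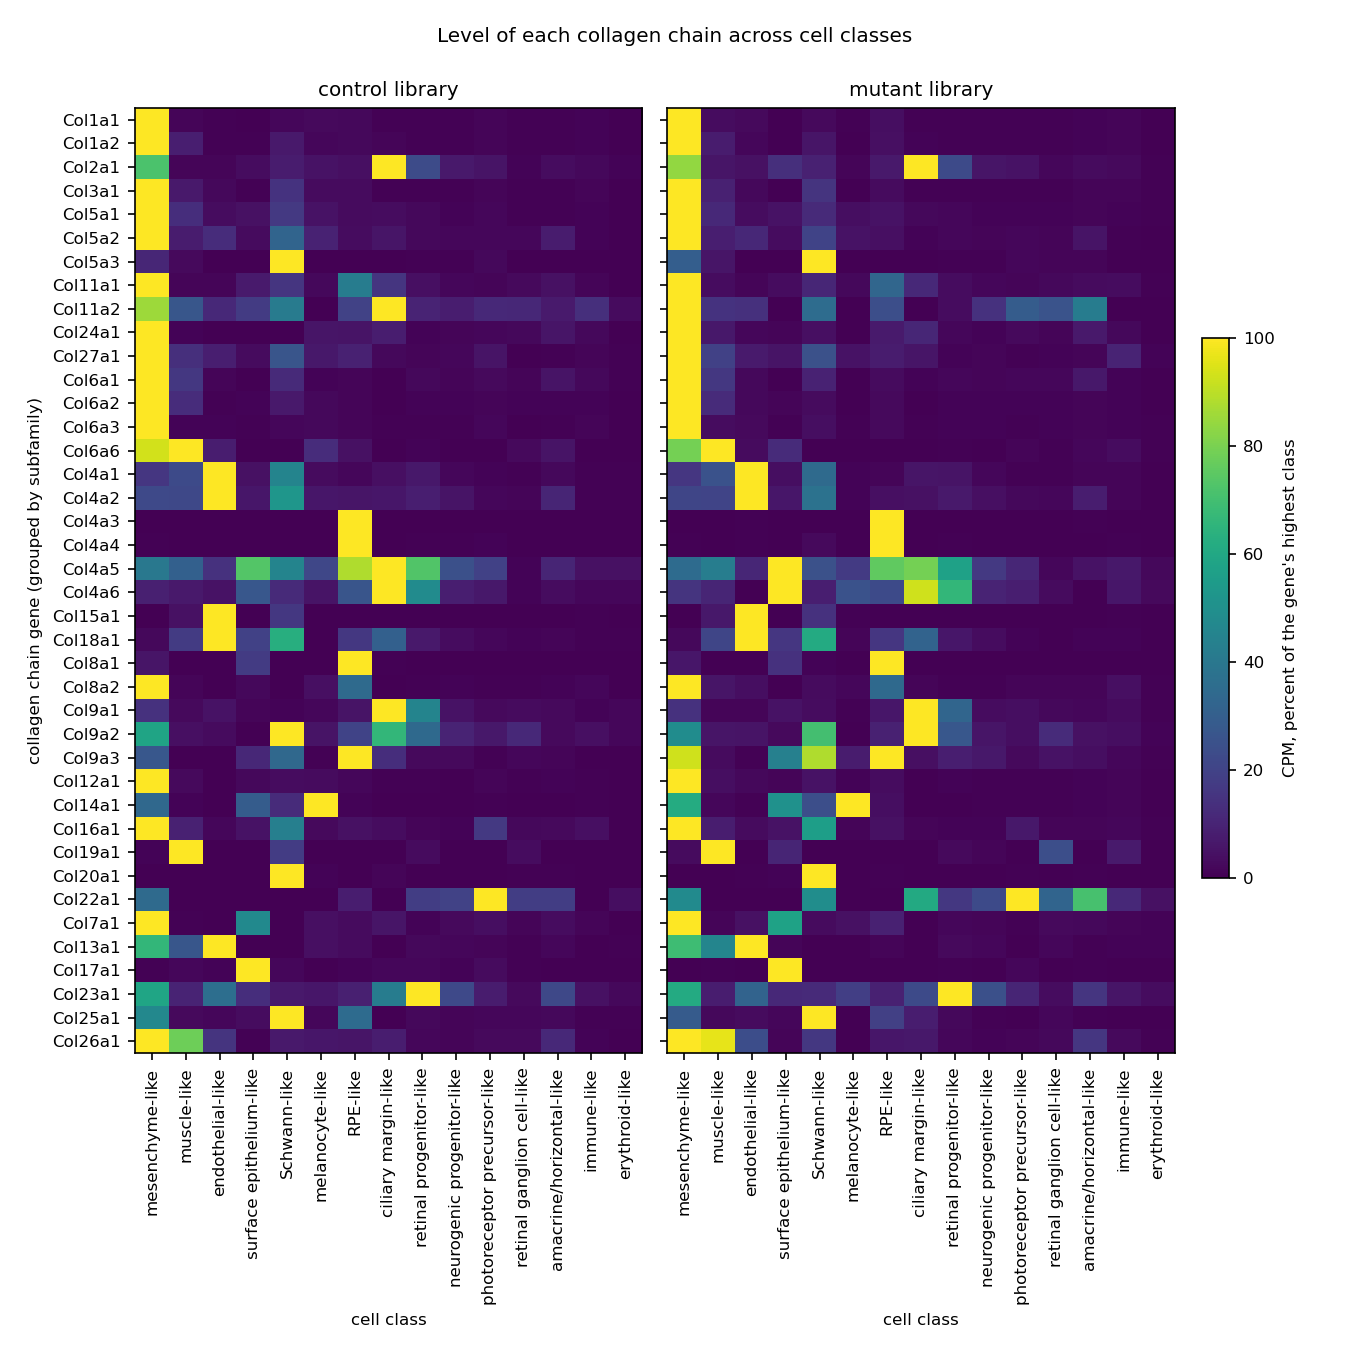
Level of each collagen chain gene that reached 100 UMIs over both libraries, in 15 cell classes of the control and the mutant library, with color standing for CPM as a percent of the gene's highest class in that library and genes grouped by subfamily. The brightest squares of Col8a1 (846 and 961 CPM), Col4a3, Col4a4 and Col9a3 lie in the RPE-like class, those of Col1a1, Col1a2 and Col3a1 in the mesenchyme-like class.

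Of the 40 chain genes that reached 100 UMIs over both libraries, 36 had their highest CPM in the same class in both libraries. That class was mesenchyme-like for 16 genes, endothelial-like for 5, RPE-like for 4, Schwann-like for 3, ciliary margin-like for 2, muscle-like for 2, and melanocyte-like, retinal progenitor-like, photoreceptor precursor-like or surface epithelium-like for 1 each. The genes with the highest level in RPE-like cells were Col4a3, Col4a4, Col8a1 and Col9a3. For Col9a3 this was clear only in the control library, since its mutant level of 94.2 CPM (80.9 to 109) in RPE-like cells overlapped the 87.3 CPM of mesenchyme-like cells and lay below the 238 CPM of the keratocyte-like subtype. With the limit of 2000 UMIs per cell stated by the study, which would have removed 79.1% of control and 80.6% of mutant barcodes, the count of agreeing classes was 20. No mesenchyme-like class was found under that limit, so the 16 genes highest there could not keep their class. The fall from 36 is therefore not read as a test of the agreement.

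Most fibrillar chains were at their highest in mesenchyme, and they differed among its subtypes. Col5a3 was instead highest in the few Schwann-like cells, at 19.8 and 16.9 CPM. Col11a2, a chain of low level, was highest in ciliary margin-like cells in the control library. Col1a1 was at 4632 CPM in control and 6941 CPM in mutant mesenchyme-like cells, and Col1a2 was at 4895 and 7267 CPM. In the keratocyte-like cells, a subtype named from markers such as Kera and Lum although the cornea had been dissected away, Col1a1 reached 8715 and 12490 CPM, above its level in each of the other 3 subtypes in the same library. Col3a1, the chain of type III fibrils, had another order, with 3987 and 4859 CPM in the Osr2/Foxl2-like cells and 2703 and 3611 CPM in the keratocyte-like cells. Col5a1, which seeds type I fibrils, was at 1440 and 2120 CPM in keratocyte-like cells and at 298 and 364 CPM in the other mesenchyme-like cells. Col2a1, the fibrillar chain of cartilage and vitreous, was highest of the 15 classes in ciliary margin-like cells at 153 and 164 CPM, with the mutant value close to the 138 CPM of mesenchyme-like cells. It reached 110 and 206 CPM in the keratocyte-like subtype and was at 6.04 and 11.0 CPM in RPE-like cells. Col11a1, a partner of type II fibrils, was at 108 and 115 CPM in RPE-like cells and at 10.0 and 11.3 CPM in retinal progenitor-like cells.

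The basement membrane chains separated the vessels, the glia and the RPE. Col4a1 was highest in endothelial-like cells, at 1096 CPM in control and 1192 CPM in mutant, and was at 494 and 411 CPM in Schwann-like cells, which wrap themselves in a basal lamina. In RPE-like cells it was at 17.3 CPM in both libraries, below its 72.1 and 64.4 CPM in retinal progenitor-like cells. Col4a3 was almost restricted to the RPE-like class, which held 95.8% of its UMIs in the control library and 89.6% in the mutant library. Its partner Col4a4 had 84.2% and 74.3% of its UMIs there. Col4a5, the X-linked chain that assembles with these products, was spread more widely, at 42.0 and 41.9 CPM in RPE-like cells and 34.8 and 31.7 CPM in retinal progenitor-like cells. Col18a1, the multiplexin whose end fragment is endostatin, was at 567 and 621 CPM in endothelial-like, 355 and 380 CPM in Schwann-like, 173 and 197 CPM in ciliary margin-like and 91.9 and 98.4 CPM in RPE-like cells. The other multiplexin, Col15a1, was at 417 and 447 CPM in endothelial-like cells and at 0.328 and 0.145 CPM in retinal progenitor-like cells.

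Short-chain, transmembrane and fibril-associated chains marked further classes. Col8a1 was at 846 CPM (817 to 876) in control and 961 CPM (918 to 1006) in mutant RPE-like cells. Outside the RPE its highest levels were 148 and 138 CPM in surface epithelium-like cells and 111 and 93.7 CPM in keratocyte-like cells, and its second chain, Col8a2, was highest in mesenchyme-like cells at 137 and 150 CPM. Col17a1, the transmembrane chain of hemidesmosomes, was at 104 and 206 CPM in surface epithelium-like cells. Col13a1, another transmembrane chain, was at 36.5 and 34.5 CPM in endothelial-like cells, with mesenchyme-like cells next at 24.1 and 23.8 CPM. Col23a1 was at 47.5 and 51.1 CPM in retinal progenitor-like cells, with mesenchyme-like cells next at 28 and 31.2 CPM. Col9a1, a fibril-associated chain of vitreous and cartilage, was highest in ciliary margin-like cells at 550.5 and 836 CPM, followed by retinal progenitor-like cells at 248 and 272 CPM. Col14a1, which sits on type I fibrils, was at 872 and 650 CPM in melanocyte-like cells, which numbered 51 control and 30 mutant cells. Col20a1 was at 130.5 and 102 CPM in Schwann-like cells and near 0 elsewhere.

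Partner chains of 1 collagen did not keep a constant ratio across classes. The ratio of Col1a1 to Col1a2 UMIs was 0.946 in control and 0.955 in mutant mesenchyme-like cells and 0.882 and 0.875 in RPE-like cells. In muscle-like cells it was 0.147 and 0.408, in Schwann-like cells 0.238 and 0.425 and in ciliary margin-like cells 0.289 and 0.444, so these classes carried more Col1a2 for each Col1a1 in both libraries. The ratio of Col4a1 to Col4a2 was 2.15 and 1.88 in endothelial-like and 1.55 and 1.42 in mesenchyme-like cells. It was below 1 in RPE-like cells, at 0.623 (0.451 to 0.855) in control and 0.673 (0.420 to 1.07) in mutant, in the amacrine and horizontal-like cells, at 0.436 and 0.356, in retinal ganglion cell-like cells, at 0.611 and 0.455, and in neurogenic progenitor-like cells, at 0.776 and 0.830. Col8a1 exceeded Col8a2 in RPE-like cells by 17.8 and 18.7 to 1, whereas the ratio was 0.356 and 0.382 in mesenchyme-like cells. Surface epithelium-like cells had 216 UMIs of Col8a1 and 4 of Col8a2 in the control, a ratio of 54.0 (20.8 to 200), and 262 and 1 in the mutant. The ratio of Col9a3 to Col9a2, 2 chains of the type IX trimer, was 12.0 and 9.0 in RPE-like cells, 1.12 and 1.55 in mesenchyme-like cells and 0.186 and 0.255 in retinal progenitor-like cells. Capture of the 3′ end differs between genes, so each ratio is read against the same ratio in other classes and not against 1 molecule per molecule.

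**Figure D2:**
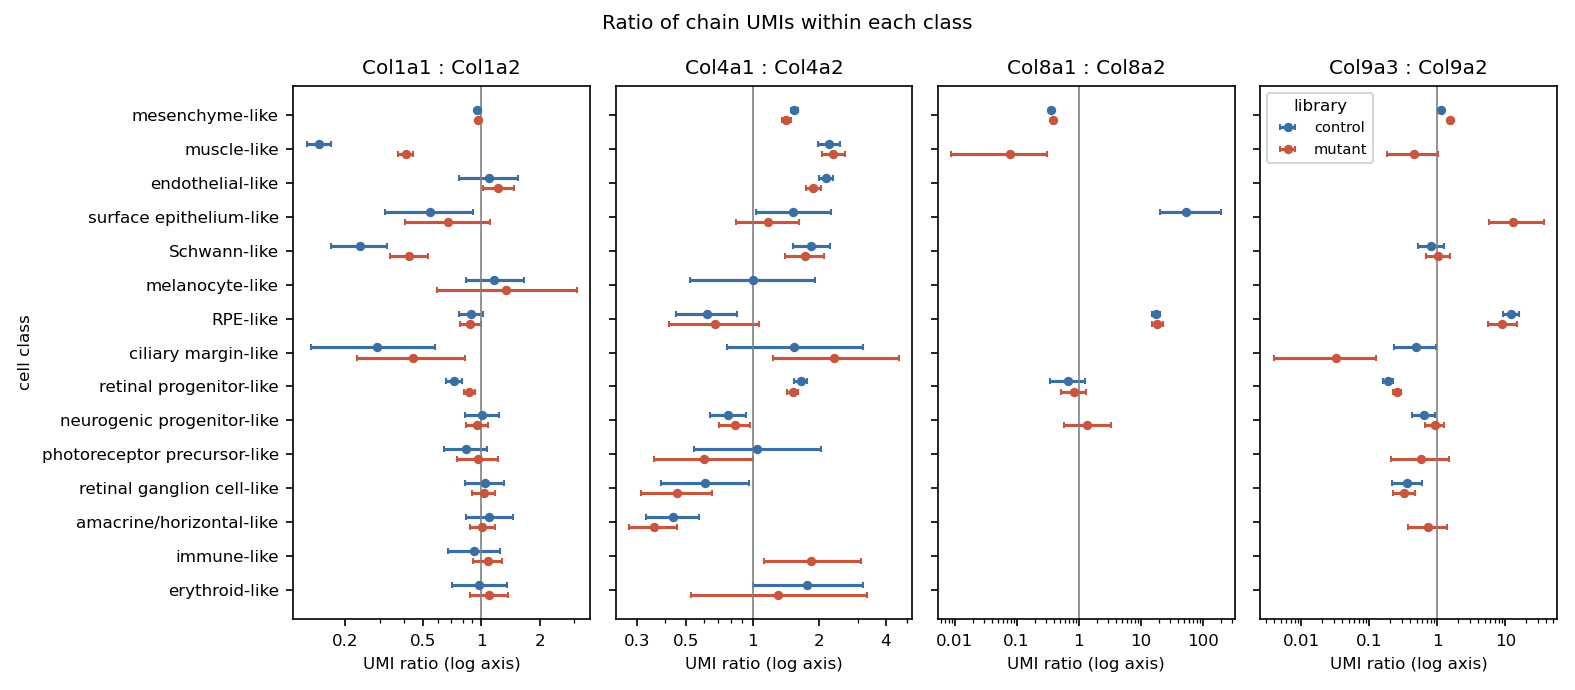
UMI ratio of 4 pairs of partner chains in each class on a log axis, with exact 95% counting intervals, where blue points are the control and red points the mutant library and pairs with fewer than 20 UMIs, or with 3 or fewer UMIs of the second chain, in a library are left out. Col8a1 to Col8a2 and Col9a3 to Col9a2 lie far to the right in RPE-like cells (17.8 and 12.0 in the control) and in surface epithelium-like cells. In the latter, Col8a1 to Col8a2 has a point only in the control (54.0) and Col9a3 to Col9a2 only in the mutant (13.0). Col1a1 to Col1a2 lies far to the left in muscle-like cells (0.147 in the control).

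In RPE-like cells the mutant library had a lower level of Col9a3, a chain of the fibril-associated type IX collagen. Col9a3 had 742 UMIs in control and 180 UMIs in mutant RPE-like cells, or 195 (181 to 209) and 94.2 (80.9 to 109) CPM. The ratio was 0.483 with a counting interval of 0.409 to 0.570. In cells thinned to 2000 UMIs, 26.4% of control cells (65 of 246) and 6.45% of mutant cells (8 of 124) had a Col9a3 UMI, where the 246 and 124 were the cells of the class deep enough to be thinned. Without thinning the shares were 31.3% and 17.7%, at median depths of 6940 and 4089 UMIs. The background share in thinned erythroid-like cells was 0.211% and 0.244%. The 5 cells richest in Col9a3 held 17.2% of its control UMIs and 48.3% of its mutant UMIs. In all 12 alternatives that gave a value, the log2 ratio stayed negative, between -2.92 and -0.98. The class held 23.6% of all control Col9a3 UMIs and 5.49% of the mutant ones, and it also shrank as a share of cells, from 3.18% to 1.56%. This fall was not particular to the class, since mesenchyme-like cells fell from 23.0% to 14.8% and endothelial-like cells from 1.42% to 1.04%. Retinal progenitor-like cells rose from 35.8% to 42.5%. Some markers of other cells were higher in the mutant RPE-like cells. The 6 erythroid markers summed to 15010 CPM against 5826 CPM in control, with 4 of the 4 that had enough UMIs at least 1.5-fold higher. The 9 retinal progenitor markers summed to 944 CPM in control and 1421 CPM in mutant, and 5 of 9 were at least 1.5-fold higher. The pericyte markers summed to 45.4 and 38.2 CPM and the endothelial markers to 47.5 and 56.5 CPM, and both intervals of the ratio overlapped 1. The part of these markers in the RPE-like results was not tested.

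The other chains of the type IX trimer rested on fewer UMIs. Col9a1 was at 29.9 CPM in control and 50.8 CPM in mutant RPE-like cells, a ratio of 1.70 (1.28 to 2.24). Col9a2 was at 16.3 and 10.47 CPM on 62 and 20 UMIs, and its interval of 0.368 to 1.08 overlapped 1. Col25a1, a transmembrane chain known from the brain, was at 28.4 and 18.3 CPM with a ratio of 0.646 (0.428 to 0.954), and Col4a6, a basement membrane chain, was at 7.35 and 4.19 CPM with an interval of 0.224 to 1.28.

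The other chains with their highest level in RPE-like cells, Col8a1, Col4a4 and Col4a3, were within 1.5-fold between the libraries. Col8a1 had a ratio of 1.14 (1.07 to 1.20), and a UMI of it was found in 46.7% of control and 47.6% of mutant cells after thinning. Its direction was not stable, with log2 ratios of -0.82 at a mitochondrial share of at most 5%, -0.49 without cells over 20000 UMIs and -0.54 in Xist-positive cells that lacked Y-linked UMIs. Col4a4 was at 143 and 173 CPM, a ratio of 1.21 (1.05 to 1.39), and Col4a3 was at 65.4 and 94.7 CPM, a ratio of 1.45 (1.19 to 1.76). Of chains whose highest level was in other classes, Col8a2 had a ratio of 1.08 (0.835 to 1.39), Col18a1 one of 1.07 (0.892 to 1.28), and Col4a1 and Col4a2 had ratios of 0.997 and 0.921, all with intervals that overlapped 1.

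Over the members, 29 of 44 had at least 20 UMIs in RPE-like cells over both libraries. Of these 29, 11 were at least 1.5-fold higher in the mutant library, where 4.90% of all 11016 genes passing the same filter were, and 4 were at least 1.5-fold lower, where 9.21% of all genes were. The median log2 ratio of the 29 was 0.27, against -0.07 for all genes. The closest to the limit were Col25a1 just inside at 0.646 and Col16a1 just outside at 1.47. The 11 higher genes were Col14a1, Col1a2, Col6a1, Col1a1, Col6a2, Col5a1, Col12a1, Col6a3, Col5a2, Col2a1 and Col9a1, and the interval of Col2a1 overlapped 1. Col1a1 had 360 and 492 UMIs, or 94.5 and 258 CPM, and Col1a2 had 408 and 562 UMIs, or 107 and 294 CPM. Their ratios were 2.72 (2.37 to 3.13) and 2.74 (2.41 to 3.13), but in Xist-positive cells that lacked Y-linked UMIs the log2 ratios were -0.16 and -0.083 and 3 members in place of 11 were higher. Col14a1 had the largest ratio of the 11, 3.45 (2.08 to 5.82), on 26 and 45 UMIs. All 3 type VI chains with 20 or more UMIs, which form beaded filaments, were among the 11, with ratios of 2.73 for Col6a1, 2.52 for Col6a2 and 2.36 for Col6a3.

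Most UMIs of the chains of types I and III, of Col14a1 and of the type VI chains Col6a1, Col6a2 and Col6a3 lay in few RPE-like cells. The 5 cells of each library richest in Col1a1, Col1a2 and Col3a1 held 64.1% of the UMIs of these 3 genes in the control and 80.8% in the mutant RPE-like cells. These cells had median depths of 27873 and 29656 UMIs, against 6740 and 3624 UMIs in the other cells of the class, and their mesenchyme markers summed to 2152 and 3743 CPM, against 311 and 274 CPM. Their RPE markers summed to 9105 and 10063 CPM, against 15130 and 14581 CPM. Without these 10 cells, 22 genes had 20 or more UMIs, 3 were higher (4.96% of all genes) and 4 were lower (9.13%). The 3 were Col1a2, Col2a1 and Col9a1, while Col14a1, Col12a1 and the 3 type VI chains fell under 20 UMIs. The 4 lower genes were Col9a3, Col9a2, Col4a6 and Col27a1, and only the interval of Col9a3 left out 1. Col25a1 was no longer among them, at 0.710 (0.470 to 1.05). Col14a1 was left with 9 and 5 UMIs and a ratio of 1.15 (0.303 to 3.82). Col6a1 had 10 and 7, Col6a2 had 5 and 7 and Col6a3 had 9 and 8 UMIs, with intervals that overlapped 1. Col1a1 then had a ratio of 1.47 (1.08 to 1.99) and Col1a2 one of 1.59 (1.25 to 2.01), and the cells with a UMI of none of the 3 genes made up 66.3% of the remaining control and 44.04% of the remaining mutant cells. Over the whole class Col1a1 was found in 14.7% of control and 29.3% of mutant cells, and in 6.10% and 10.48% after thinning, against 3.38% and 3.18% of thinned erythroid-like cells. The log2 ratio without the 10 cells was 0.56 for Col1a1, 0.67 for Col1a2, 0.37 for Col5a1, -0.21 for Col5a2 and -0.56 for Col3a1. Over the whole class that of Col3a1 was 0.36, within the limit. Col9a3 had a ratio of 0.411 (0.342 to 0.492) and Col4a3 one of 1.45 (1.19 to 1.77) without the same cells. Over the whole class the 10 mesenchyme markers summed to 382 CPM in control and 533 CPM in mutant, 0 of them were at 0, and 4 of the 9 with enough UMIs were at least 1.5-fold higher and 1 was lower. The part of these markers in the differences of the chains was not tested.

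**Figure D3:**
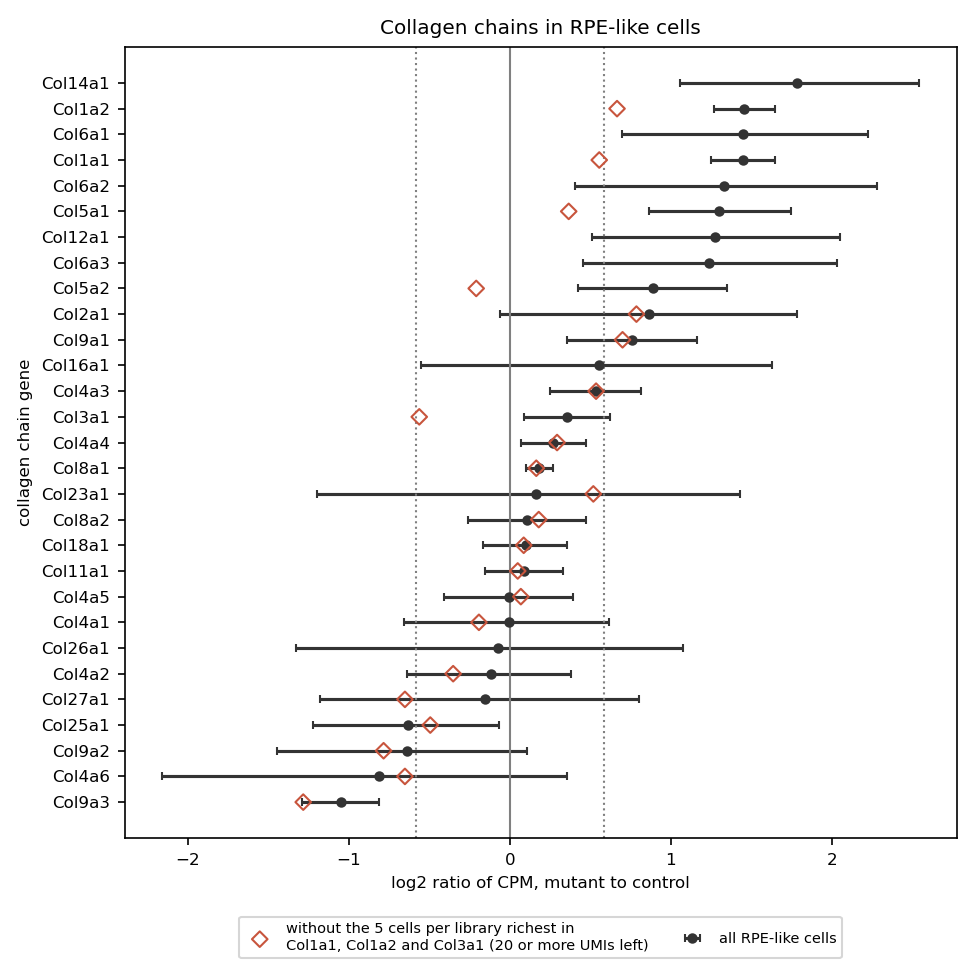
Log2 ratio of CPM, mutant to control, of the 29 collagen chain genes with at least 20 UMIs in RPE-like cells, with exact 95% counting intervals (filled points) and without the 5 cells per library richest in Col1a1, Col1a2 and Col3a1 (open diamonds, where 20 UMIs remained). Dotted lines mark 1.5-fold. Col9a3 lies lowest with and without those cells, and the diamonds of Col5a1, Col5a2 and Col3a1 lie far to the left of their points.

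The summed collagen level of RPE-like cells was 2058 CPM in control and 2636 CPM in mutant, a ratio of 1.28 (1.24 to 1.33). It was 1858 and 1962 CPM without the 10 cells above, a ratio of 1.06, and the ratio was 0.851 without cells over 20000 UMIs and 0.793 in Xist-positive cells that lacked Y-linked UMIs, of which there were 190 control and 42 mutant. In the 15 classes the summed level was higher in the mutant library in 13 and lower in 2, the melanocyte-like cells (1426 and 911 CPM) and the photoreceptor precursor-like cells (330.5 and 277 CPM). The melanocyte-like difference included Col14a1, the highest chain of the class at 872 and 650 CPM, and Col1a1, of which 96.1% of the control UMIs lay in 5 cells. The mesenchyme markers in melanocyte-like cells summed to 110 and 51.6 CPM and the pericyte markers had 40 UMIs in control and 0 in mutant, and their part was not tested. In erythroid-like cells the sum was 69.8 CPM in control and 104 CPM in mutant, a ratio of 1.496, and Col1a1 there was at 9.75 and 24.6 CPM. The part of free RNA in the low values of the other classes was not tested.

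**Figure D4:**
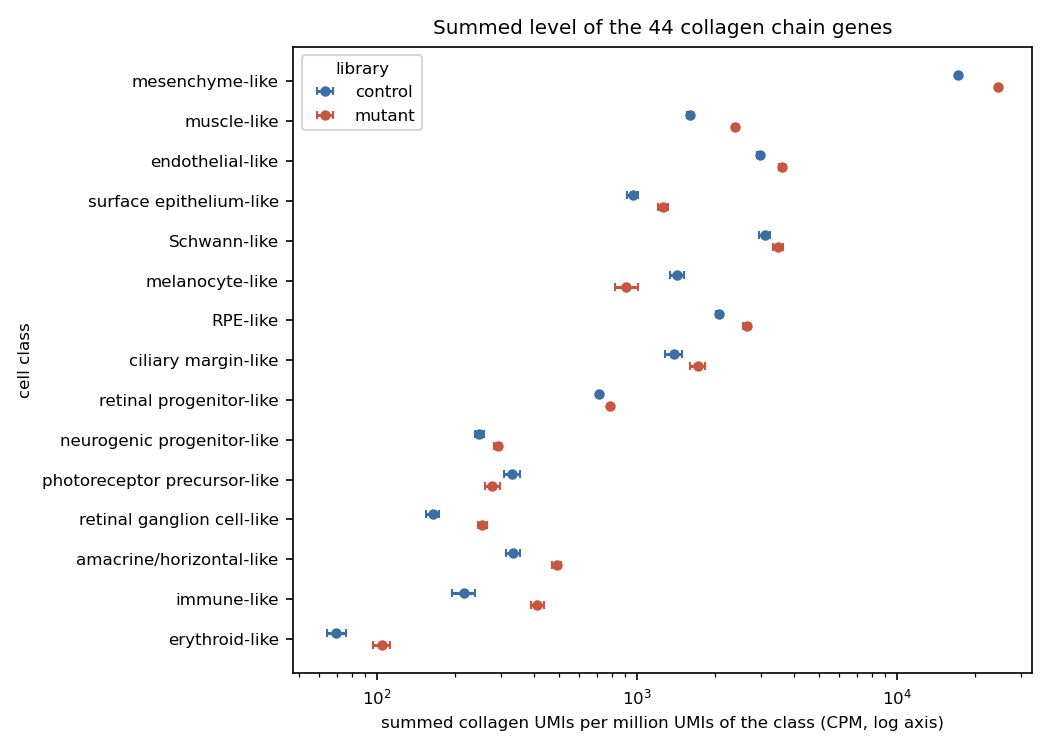
Summed CPM of the 44 collagen chain genes in each cell class on a log axis, with blue points for the control library, red points for the mutant library and exact 95% counting intervals as bars. The mesenchyme-like cells lie highest, at 17202 and 24455 CPM, and the erythroid-like cells lowest, at 69.8 and 104 CPM.

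In mesenchyme-like cells, which lie outside the lineage of the optic vesicle, the collagen sum was 17202 CPM in control and 24455 CPM in mutant, a ratio of 1.42 (1.42 to 1.43). By subtype the ratio was 1.44 in tendon-like, 1.40 in keratocyte-like, 1.29 in other and 1.20 in Osr2/Foxl2-like cells. Keratocyte-like cells, the richest in collagen, held 9062137 of 38569697 class UMIs in control and 7863927 of 27806106 in mutant. The part of this mix of subtypes in the pooled ratio was not tested. Among the 9 alternatives that gave a value the ratio of the pooled class lay between 1.37 and 1.45. Col1a1 and Col1a2 had ratios of 1.498 and 1.48, Col3a1 of 1.29, Col4a1 of 1.08, Col4a2 of 1.17, Col8a1 of 1.17, Col8a2 of 1.09 and Col18a1 of 1.15. The 1.5-fold limit cut through this shift, with Col9a1 just inside at 1.53 and Col1a1 just outside at 1.498. Of the 44 genes, 41 had enough UMIs, 5 of them were at least 1.5-fold higher against 5.97% of all genes, and 0 were lower against 3.00%. The median log2 ratio of the 41 was 0.37. The 10 mesenchyme markers summed to 5905 and 6614 CPM, a ratio of 1.12, and 0 of the 10 passed the fold limit.

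The genes past the limit were mostly of low level. Col5a3, a minor fibrillar chain, was at 2.15 CPM in control and 5.07 CPM in mutant, a ratio of 2.36 (1.78 to 3.13), and most of its UMIs were in the Osr2/Foxl2-like cells, where it was at 6.47 and 16.0 CPM. Col10a1, the chain of hypertrophic cartilage, had 10 and 22 UMIs, and 5 cells held 80.0% and 77.3% of them. Col9a3 was at 53.1 and 87.3 CPM in mesenchyme-like cells, a ratio of 1.64 (1.55 to 1.74), the opposite direction to the RPE-like cells. In the Osr2/Foxl2-like and other mesenchyme-like subtypes Col9a3 did not pass the limit and lay slightly lower in the mutant library. Col9a1 was at 77.9 and 119 CPM, and Col6a6, an alternative type VI chain, was at 10.7 and 16.8 CPM. For the retinal progenitor markers, the sum in mesenchyme-like cells was 486 and 751 CPM, a ratio of 1.55, and its part in these values was not tested.

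The subtypes of mesenchyme gave different counts. In tendon-like cells 11 of 35 genes with enough UMIs were at least 1.5-fold higher (5.74% of all genes) and 0 were lower (2.79%), with a median log2 ratio of 0.45. These included Col1a1 and Col1a2, both with ratios of 1.52 (1.504 to 1.55), Col14a1 with 1.71 (1.58 to 1.85) and Col24a1, a fibrillar chain, with 1.91 (1.52 to 2.41). In keratocyte-like cells 4 of 32 were higher (4.64%) and 1 was lower (5.04%), with a median of 0.36. The 4 were Col2a1 at 110 and 206 CPM, Col5a2 at 1189 and 1813 CPM, Col9a1 at 178 and 293 CPM and Col9a3 at 151 and 238 CPM. In Osr2/Foxl2-like cells 3 of 34 were higher (7.41%) and 2 were lower (3.51%), with a median of 0.12, and in the other mesenchyme-like cells 4 of 36 were higher (5.06%) and 1 was lower (3.13%), with a median of 0.21. Col7a1, the anchoring fibril chain, was highest in keratocyte-like cells, at 119.6 and 151.5 CPM with a ratio of 1.27 (1.17 to 1.38). In the other subtypes, where it was lower, its direction differed, with ratios of 1.94 (1.57 to 2.39) in tendon-like, 0.613 (0.418 to 0.886) in Osr2/Foxl2-like and 0.454 (0.216 to 0.885) in other mesenchyme-like cells. The retinal progenitor markers summed to 469 and 888 CPM in tendon-like cells, with 8 of 9 at least 1.5-fold higher, to 521 and 828 CPM in Osr2/Foxl2-like, 284 and 408 CPM in keratocyte-like and 657 and 942 CPM in other mesenchyme-like cells. The erythroid markers summed to 4039 and 1730 CPM in tendon-like, 21670 and 12280 CPM in other mesenchyme-like, 4633 and 3790 CPM in Osr2/Foxl2-like and 1313 and 4079 CPM in keratocyte-like cells. The part of these markers was not tested, nor was the difference between subtypes.

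**Figure D5:**
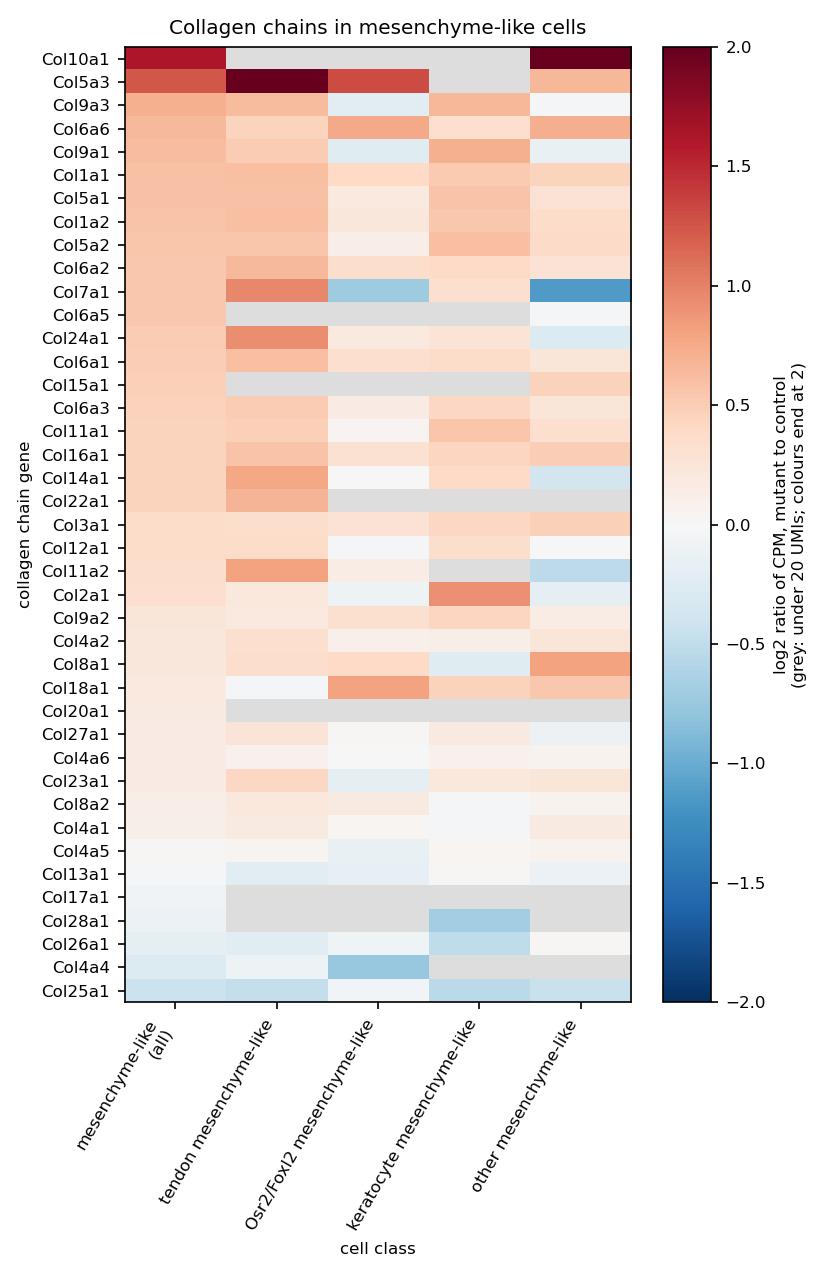
Log2 ratio of CPM, mutant to control, as color for the 41 collagen chain genes with at least 20 UMIs in all mesenchyme-like cells (first column) and in the 4 subtypes, with red for higher in the mutant library, blue for lower and gray for under 20 UMIs. Of the genes shown, 30 of 35 were above 0 in tendon-like, 26 of 32 in keratocyte-like and 22 of 34 in Osr2/Foxl2-like cells.

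In retinal progenitor-like cells, 4128 in control and 5386 in mutant, the chains of highest level differed little between the libraries. Col9a1 was at 248 and 272 CPM, Col4a1 at 72.1 and 64.4 CPM with a ratio of 0.893, Col4a2 had a ratio of 0.973 and Col18a1 one of 0.961. Of the 33 genes with enough UMIs, 9 were at least 1.5-fold higher against 3.54% of all genes and 0 were lower against 2.07%, with a median log2 ratio of 0.18. The 9 were Col7a1, Col24a1, Col12a1, Col14a1, Col6a2, Col6a3, Col1a1, Col9a3 and Col8a1, and the intervals of Col24a1 and Col8a1 overlapped 1. Col1a1 was at 24.1 and 40.9 CPM, a ratio of 1.70, and Col12a1, a fibril-associated chain, at 2.13 and 4.49 CPM, a ratio of 2.11. Col1a2 lay just outside the limit at a ratio of 1.42, and Col3a1 and Col8a2 were also within the limit. Col9a3 was at 5.15 and 8.01 CPM. The erythroid-like cells had 9.75 and 24.6 CPM of Col1a1 in the same libraries. With the erythroid-like level subtracted in proportion to depth, an alternative added after seeing the data, 5 were higher and 3 lower, and the log2 ratio was 0.18 for Col1a1 and 0.46 for Col6a2, below the limit, and turned negative for Col6a3 (-0.67), Col14a1 (-0.23) and Col7a1 (-0.028). It was 1.35 for Col12a1 and 0.71 for Col9a3.

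In endothelial-like cells, 164 in control and 132 in mutant, the vascular basement membrane chains were within 1.5-fold of each other. Col4a1 had a ratio of 1.09, Col4a2 of 1.25 and Col18a1 of 1.09. The fibrillar chain Col3a1 lay just outside the limit at 1.43. Of 19 genes with enough UMIs, 7 were at least 1.5-fold higher against 7.18% of all genes and 1 was lower against 5.67%, with a median log2 ratio of 0.37. Among the higher genes were Col1a1 at 32.9 and 163 CPM, Col1a2 at 30.2 and 134 CPM and Col6a3 at 4.51 and 16.3 CPM, and 5 cells held 79.6%, 78.3% and 85.2% of their mutant UMIs. At a mitochondrial share of at most 5% the log2 ratios of Col1a1 and Col1a2 turned negative, at -0.096 and -0.35, and 1 gene in place of 7 was higher. Without the 5 cells richest in each gene, 2 were higher and 0 were lower. Col12a1 had 3 and 21 UMIs, a ratio of 9.38 with an interval of 2.80 to 49.1. Also higher were Col5a1, just inside the limit at 1.52, Col6a1 on 14 and 24 UMIs and Col6a2 on 4 and 17 UMIs. The lower gene was Col9a1, at 27.1 and 12.7 CPM with a ratio of 0.469 (0.271 to 0.782), and 5 cells held 83.3% and 76.2% of its UMIs. The erythroid markers in these cells summed to 320 CPM in control and 16110 CPM in mutant, and the mesenchyme markers to 152 and 195 CPM. The part of these in the collagen values was not tested.

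In surface epithelium-like cells Col17a1 was at 104 and 206 CPM, a ratio of 1.98 (1.64 to 2.41), and Col7a1, which anchors this epithelium to its stroma, was at 17.1 and 30.1 CPM, a ratio of 1.76 (1.08 to 2.95). Of the markers of other cells in this class, the retinal progenitor markers summed to 774 and 1116 CPM with 8 of 9 higher, the mesenchyme markers to 195 and 105 CPM with 2 of 4 lower and the erythroid markers to 11170 and 7554 CPM with 2 of 4 lower, and their part was not tested. In muscle-like cells Col1a1 was at 59.5 and 230 CPM, a ratio of 3.86 (3.32 to 4.51), and 5 cells held 63.7% of its mutant UMIs. The mesenchyme markers in muscle-like cells summed to 247 and 326 CPM, with 4 of 9 higher and 1 lower, and the erythroid markers to 1000 and 4825 CPM, with 4 of 4 higher, and their part was not tested. In ciliary margin-like cells, 51 in control and 46 in mutant, Col9a2 was at 53.6 and 116 CPM, a ratio of 2.17 (1.36 to 3.55), and Col9a1 had a ratio of 1.52 (1.30 to 1.77). Col9a3 was at 25.8 and 3.82 CPM there on 13 and 2 UMIs, under the minimum for the comparison.

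Genes that act on collagen were compared as 4 lists, which hold the enzymes that modify and fold the chains (21 genes), the proteases that cleave procollagen with their enhancers (8), the collagen receptors (11) and the enzymes and inhibitors of breakdown (11). In RPE-like cells 0 of 19 modification genes with enough UMIs were at least 1.5-fold higher and 1 was lower, 1 of 2 cleavage genes was higher, 1 of 5 receptors was higher and 3 of 9 breakdown genes were higher, where 4.90% of all genes were higher and 9.21% lower. The intervals of the lower modification gene, P4ha3, and of the breakdown genes Mmp2 and Mmp15 overlapped 1. Pcolce, which enhances the cleavage of procollagen, was at 102 and 172 CPM there, a ratio of 1.68 (1.45 to 1.95). Adgrg6, a receptor that binds type IV collagen, was at 3.68 and 10.47 CPM with a ratio of 2.85 (1.37 to 6.09), and Ctsk, a protease that degrades collagen, was at 7.09 and 13.1 CPM with a ratio of 1.85 (1.03 to 3.30) and all 25 of its mutant UMIs in 5 cells. In mesenchyme-like cells, where 5.97% of all genes were higher and 3.00% lower, 1 of 21 modification genes was higher, Colgalt2, which adds galactose to collagen, at 3.47 and 8.02 CPM with a ratio of 2.31 (1.86 to 2.88). Of 7 cleavage genes there, Adamts14 was higher at 1.25 and 2.16 CPM with a ratio of 1.73 (1.17 to 2.59), and Adamts3 was lower at 3.97 and 2.19 CPM with a ratio of 0.553 (0.404 to 0.749). Both cut the amino end of procollagen. Of 9 receptors in mesenchyme-like cells, 2 were higher with intervals that overlapped 1, and 0 of 9 breakdown genes passed the limit. In retinal progenitor-like cells (3.54% of all genes higher and 2.07% lower) 0 of 19 modification genes, 1 of 6 cleavage genes, 0 of 7 receptors and 2 of 9 breakdown genes passed it, the last being Ctsk at a ratio of 1.59 (1.03 to 2.50) and the inhibitor Timp1 at 0.662 (0.511 to 0.857). In endothelial-like cells (7.18% higher and 5.67% lower) 1 of 19, 1 of 3, 0 of 7 and 0 of 7 passed it, and Crtap, a part of the prolyl 3-hydroxylation complex, was lower at 55.0 and 35.7 CPM with a ratio of 0.648 (0.466 to 0.891).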

How the data were processed

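The authors pooled 3 eye cups per genotype, prepared 10x Genomics 3′ libraries and deposited raw UMI counts per gene and barcode, aligned to mm10. The submitters' processing notes name Cell Ranger 7.1.0 and Seurat 4.1.1, while the matrix header states software version 3.1.0. The deposited counts were used as they stand. Barcodes with under 200 genes or over 15% mitochondrial UMIs were removed, as were Scrublet doublets (3.33% of control and 2.69% of mutant barcodes tested), and the study's limit of 2000 UMIs was run as an alternative. Cells were clustered without the collagen genes and the naming markers (scanpy 1.11.5, 30 components, 15 neighbors, Leiden resolution 1.0, 33 clusters). A cluster was named from at least 3 detected markers, by limits set after seeing the data, and 4 clusters stayed unnamed. Names were rebuilt here, so differences from the study may come from them.

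UMIs were summed per class and library and given as CPM of the class total, with exact Poisson intervals for levels, exact conditional binomial intervals for ratios (scipy 1.17.1) and exact Clopper-Pearson intervals for shares of cells. Libraries held 120312254 and 125474215 UMIs in kept cells. No test was run, since each genotype was 1 library. A gene counts as higher or lower at 1.5-fold, if the 2 libraries together held 20 or more of its UMIs. The ratio and interval code was checked on simulated counts. The collagen genes, the pathway lists and the markers were chosen with earlier results of these data known. Named genes were chosen from those past the limit with an interval that left out 1, plus Col8a1, Col8a2, Col9a3, Col18a1, Col4a1, Col4a2, Col1a1, Col1a2 and Col3a1 whatever their values, and other members where a level is described. Not every value of these genes is printed.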

Additional observations from a re-analysis of the deposited data

Results flagged for a closer look

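Col9a3 and Col9a1 had ratios past 1.5-fold in opposite directions in different classes, which is why they are given again here. Col9a3 had a mutant to control ratio of 0.483 in RPE-like cells, 1.56 in retinal progenitor-like cells and 1.64 in mesenchyme-like cells. In Xist-positive cells that lacked Y-linked UMIs the log2 ratio in retinal progenitor-like cells was 0.21, and without cells over 20000 UMIs that in mesenchyme-like cells was 0.47, both within the 1.5-fold limit. Col9a1 had a ratio of 0.469 in endothelial-like cells, 1.70 in RPE-like cells and 1.53 in mesenchyme-like cells, the last with a log2 ratio of 0.55, within the limit, without cells over 20000 UMIs. In the Osr2/Foxl2-like and other mesenchyme-like subtypes neither gene passed the limit, and both lay slightly lower in the mutant library. Col9a3 had 67 of 9279319 control and 41 of 6572382 mutant UMIs in the first subtype. In the second it had 300 of 9867008 and 200 of 6685990. With 1 library per genotype, the difference between classes was not tested. A Y-linked UMI was found in 41.8% of mutant cells and 0.0260% of control cells, so the pools differed in the sex of their embryos.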

How the results depend on the processing

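No paired analysis was possible because each genotype was 1 library, and for the same reason no replicate could be left out. The genes at least 1.5-fold higher in RPE-like cells numbered 11 as reported, 3 without the 5 cells richest in each gene, 3 without the same 5 cells per library for every gene (chosen after seeing the data), 3 in Xist-positive cells that lacked Y-linked UMIs (Xist cells), 5 without cells over 20000 UMIs and 2 without cells over 2000 UMIs. Those lower numbered 4 as reported, 2 after centering on the class median, 1 at a 2-fold limit, 8 in Xist cells and 2 without cells over 2000 UMIs. In mesenchyme-like cells the 5 higher became 2 at 2-fold, 10 without the richest cells and 12 at a mitochondrial share of at most 5%, and the 0 lower became 1 without cells over 20000 UMIs. In progenitor-like cells the 9 higher became 3 at 2-fold, and the 0 lower became 4 with all genes of 4 or more UMIs, 6 after subtraction of free RNA per cell and 1 in Xist cells. With free RNA subtracted in proportion to depth (chosen after seeing the data), 5 were higher and 3 lower in progenitor-like cells and 4 higher in endothelial-like cells. In endothelial-like cells the 7 higher became 3 at 50 or more UMIs, 13 at 4 or more, 2 without the richest cells, 4 after subtraction per cell, 4 in Xist cells and 1 at 5% mitochondrial share, and the 1 lower became 0 without the richest cells, 2 at 5%, 2 with doublets kept and 0 without cells over 20000 UMIs.

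Of pathway genes, 6 passed the fold in RPE-like cells, 3 at 50 or more UMIs, 1 at 2-fold, 3 at 5% and 2 without cells over 2000 UMIs. In progenitor-like cells 3 became 0 at 2-fold and 5 in Xist cells, and in mesenchyme-like cells 5 became 1 at 2-fold. In endothelial-like cells 2 became 1 at 50 or more UMIs, 6 at 4 or more, 0 at 2-fold, 7 in Xist cells, 6 at 5% and 5 without cells over 20000 UMIs. Chains highest in the same class in both libraries numbered 36, and 20 without cells over 2000 UMIs, where 11 in place of 4 were highest in RPE-like and 8 in place of 1 in progenitor-like cells, the last being 2 in Xist cells. Without cells over 2000 UMIs there was no mesenchyme-like class, so chains highest in it had to move to another class.

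Of the genes past the fold limit, log2 ratios turned negative in RPE-like Xist cells for Col14a1 (-0.94), Col1a2 (-0.083), Col6a1 (-1.05), Col1a1 (-0.16), Col6a2 (-0.60) and Col12a1 (-0.52), for Col6a6 in mesenchyme-like Xist cells (-0.057), for Col5a2 in RPE-like cells without its richest cells (-0.084) or the same 5 cells (-0.21), for Col6a2 (-0.42) and Col1a1 (-5.25) in progenitor-like cells after subtraction per cell, for Col7a1 (-0.028), Col14a1 (-0.23) and Col6a3 (-0.67) there after subtraction in proportion to depth, and for Col1a1 (-0.096), Col1a2 (-0.35) and Col5a1 (-0.061) in endothelial-like cells at 5% mitochondrial share. Erythroid-like cells are deeper than progenitor-like cells, so subtraction per cell takes low levels to or under the floor, and no direction is read from its values, which include -7.29 for Col1a2 and -4.48 for Col3a1. Genes within the limit changed sign too, such as Col3a1 at 5% mitochondrial share in RPE-like (-0.71) and endothelial-like cells (-2.21). The cause was not tested, beyond the smaller number of cells or genes that each alternative leaves. With the limit of 2000 UMIs no mesenchyme-like class was found and fewer than 30 mutant endothelial-like cells remained, so these gave no value. Low counts limit the smaller classes, with 19 of 44 members at 20 UMIs in endothelial-like and 29 in RPE-like cells.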

Other observations

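A cluster led by Spp1, Mgp and Ecm1, in which 2 pericyte markers were detected, under the minimum of 3 for a name, held 315 control and 302 mutant cells and had a summed collagen level of 6086 and 6570 CPM, a ratio of 1.08. This was above the level of every named class except the mesenchyme-like cells in both libraries. Retinal ganglion cell-like cells had 164 and 254 CPM and immune-like cells 216 and 414 CPM.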
